A study of Mus musculus with 23 samples.

Results

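Transcript levels of 9 genes of the CC chemokine system were measured in bulk RNA from subcutaneous MC38 tumors. They comprised the ligands Ccl2, Ccl7, Ccl12, Ccl8, Ccl3, Ccl4 and Ccl5 and the receptors Ccr1 and Ccr2. The genes were taken by name from a list that was drawn up with earlier results of these data known, and all 9 were found among the 26869 genes of the expression matrix. MC38 is a colon carcinoma line of C57BL/6 origin. Each tumor grew in a female F1 mouse from a cross of C57BL/6J with 1 of 6 Collaborative Cross lines, which are recombinant inbred mice that differ widely in genetic background. The lines were CC001/UncJ, CC002/UncJ and CC075/UncJ, whose F1 mice the study's text classes as responders to PD-1 blockade (R), and CC036/UncJ, CC079/TauUncJ and CC080/TauUncJ, whose F1 mice it classes as non-responders (NR). The F1 hosts are called CC001F1, CC002F1 and so on. Mice aged 8 to 12 weeks were given MC38 cells under the skin, and at a tumor size of 75 to 110 mm3 a single dose of 200 µg was injected, which was the PD-1-blocking antibody (aPD1) or its isotype control. Tumors were collected 48 h after that dose. There were 23 tumors in 12 groups of line and antibody, with 2 tumors in each group except CC080F1 with aPD1, which had 1. No untreated tumors and no mice of the parental lines entered these comparisons. Because whole tumors were sequenced, transcripts of MC38 cells and of host cells were not separated, and fewer cells of a type cannot be told apart from less RNA per cell.

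CC chemokines are small secreted proteins that draw leukocytes along a gradient by binding G protein-coupled receptors on the cell surface. CCR2 is the receptor by which inflammatory monocytes leave the bone marrow and enter tumors, and CCL2, CCL7 and CCL12 are its ligands. CCL3, CCL4 and CCL5 are made by activated macrophages and T cells, and CCL3 and CCL5 bind CCR1, a receptor of monocytes and neutrophils. Mouse CCL8 signals through CCR8, a receptor of type 2 helper and regulatory T cells.

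In GRCm38, 4 of the genes lie close together on the plus strand of chromosome 11, namely Ccl2 (chr11:82035571-82037453), Ccl7 (chr11:82045712-82047525), Ccl12 (chr11:82101845-82103400) and Ccl8 (chr11:82115185-82116799). Further along chromosome 11 lie Ccl5 (chr11:83525778-83530518) and Ccl3 (chr11:83647844-83649355), both on the minus strand, and Ccl4 (chr11:83662584-83664683) on the plus strand. The receptor genes Ccr1 (chr9:123962124-123968692, minus strand) and Ccr2 (chr9:124101950-124113557, plus strand) are on chromosome 9. All 9 are protein-coding. Ccl2 overlaps Gm17268 on the opposite strand, and whether the counting used strand is not given in the sources used here, so that reads of the pair may not be separated. In reference transcripts, no 50-base stretch of Ccl2, Ccl3, Ccl4, Ccl5, Ccl7, Ccl8, Ccl12 or Ccr1 recurred in a transcript of another gene. Of the 6758 such stretches of Ccr2, 129 (1.91%) did, so that a small part of the Ccr2 reads may have been shared with other genes.

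Promoter sequences of 5 of the 9 genes matched the RefSeq table (GRCm38.p6), each from 250 bases before to 50 bases after the annotated start. Shown here 5′ to 3′ are Ccl12 and Ccr1, which differed between R and NR tumors, Ccl3, which rose with aPD1, and Ccl8, the neighbor of Ccl12 and the most variable of the 9. Capitals mark the letters TATAAA, where the general transcription machinery can bind upstream of a start.
Ccl12 (chr11:82101595-82101894, plus strand): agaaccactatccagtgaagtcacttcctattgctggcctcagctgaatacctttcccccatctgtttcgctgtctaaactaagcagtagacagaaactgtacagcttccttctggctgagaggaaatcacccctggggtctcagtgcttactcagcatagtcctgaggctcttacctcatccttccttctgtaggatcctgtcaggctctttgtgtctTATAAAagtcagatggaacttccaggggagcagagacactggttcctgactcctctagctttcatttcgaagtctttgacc
Ccl8 (chr11:82114935-82115234, plus strand): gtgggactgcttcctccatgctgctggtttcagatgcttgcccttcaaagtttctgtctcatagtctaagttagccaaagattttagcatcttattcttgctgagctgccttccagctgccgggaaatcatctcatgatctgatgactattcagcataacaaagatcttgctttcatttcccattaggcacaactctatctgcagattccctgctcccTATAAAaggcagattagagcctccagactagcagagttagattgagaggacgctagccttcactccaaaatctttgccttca
Ccl3 (chr11:83649329-83649628, minus strand): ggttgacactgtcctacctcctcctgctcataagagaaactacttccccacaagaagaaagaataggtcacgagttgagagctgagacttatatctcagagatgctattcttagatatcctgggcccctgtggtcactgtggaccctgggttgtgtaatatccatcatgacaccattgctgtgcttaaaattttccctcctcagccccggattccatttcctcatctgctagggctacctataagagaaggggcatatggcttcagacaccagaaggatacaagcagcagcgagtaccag
Ccr1 (chr9:123968643-123968942, minus strand): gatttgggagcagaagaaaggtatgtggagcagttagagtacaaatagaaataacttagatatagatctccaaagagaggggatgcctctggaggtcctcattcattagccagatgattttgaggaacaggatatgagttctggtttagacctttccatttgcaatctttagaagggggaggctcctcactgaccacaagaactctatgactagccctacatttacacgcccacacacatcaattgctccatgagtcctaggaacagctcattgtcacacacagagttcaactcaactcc
The letters TATAAA stood at positions -31 to -26 from the start of Ccl12 and at -32 to -27 from that of Ccl8. They occurred on either strand in 13.6% of the 32851 promoters of the table, and not in the windows of Ccl3, Ccr1 or Ccr2. That motif was added after the sequences had been seen. Both strands were also searched for consensus sites of NF-kappa B, of the interferon-stimulated response element, of STAT factors (TTCNNNGAA) and of AP-1, which occurred in 1.47%, 3.44%, 8.30% and 7.81% of all promoters, and none was in the windows of the 5 genes. A match or its absence describes these letters alone.

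Library totals, in expected counts, had a median of 42327589 and lay between 14494014 and 71868253. They split into 6 shallow libraries (up to 18354585 counts, 2 R and 4 NR) and 17 deep ones (from 37242363 counts, 10 R and 7 NR), so that depth and class were partly mixed. Leukocyte genes were present in every tumor, with Csf1r, the receptor of macrophage colony-stimulating factor, at 5154 to 14653 normalized counts, and so was Shisal2b, which the study uses as a marker of MC38 cells, at 460 to 1138 (median 694). The epithelial keratins Krt8 and Krt18 were low, with medians of 17.2 and 15.4, and at 0 in 2 and 7 tumors. Counts of the lymph node gene Glycam1 were found in 3 tumors (CC002F1 isotype replicate 1, CC079F1 aPD1 replicate 1 and CC080F1 aPD1 replicate 1). The skeletal muscle genes Acta1, Ckm, Atp2a1, Mybpc2 and Tnnt3 summed to 14714.7 normalized counts in CC001F1 aPD1 replicate 1. They summed to 6742.7 in CC001F1 isotype replicate 1, 5710.6 in CC080F1 isotype replicate 2 and 5011.3 in CC075F1 aPD1 replicate 1. In the other tumors the sum was at most 1039.6. The part of muscle tissue in the results was not tested. A normalized count here is an expected count divided by the library's DESeq2 size factor.

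All 9 genes were detected in all 23 tumors. Compared per kilobase of exon, the CCR2 ligand Ccl2 was the most abundant, with a median of 2863 normalized counts per kb and a range of 1456 to 5119, and it ranked first in 20 of 23 tumors. Ccl12 (median 1847 per kb), Ccl5 (1753 per kb) and Ccl7 (1384 per kb) followed, then Ccl8 (872 per kb) and the receptors Ccr1 (744 per kb) and Ccr2 (353 per kb). Ccl4 (221 per kb) and Ccl3 (157 per kb) were the least abundant, and Ccl3 ranked 8 or 9 in every tumor. The length used was that of all annotated exons of a gene joined, which was 6760 bases for Ccr2 and 511 for Ccl8. The order depends on it, since the median normalized count not divided by length was 2389 for Ccr2 and 446 for Ccl8. The spread across tumors was wide for some ligands and narrow for others. The highest tumor exceeded the lowest 18.4-fold for Ccl8, 7.87-fold for Ccl3, 6.99-fold for Ccl4 and 5.89-fold for Ccl7, against 2.25-fold for Ccr1 and 2.47-fold for Ccl5.

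**Figure D1:**
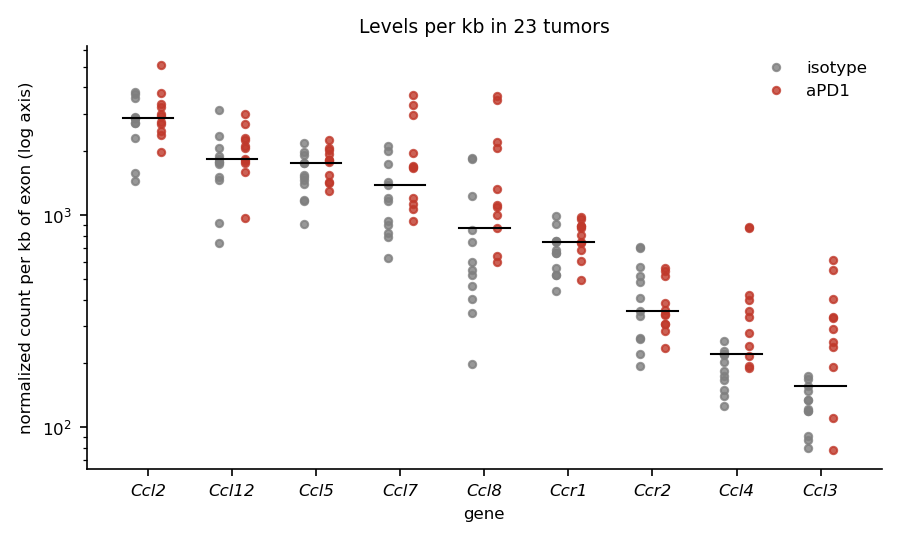
Normalized count per kb of exon (log axis) of each gene in the 23 tumors, with isotype tumors in grey, aPD1 tumors in red and the median of all tumors as a black line. Ccl2 had the highest median (2863 per kb) and Ccl3 the lowest (157 per kb), and the uppermost Ccl3 and Ccl4 points are aPD1 tumors.

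The first comparison asked how levels varied with the host line. Of the 9 genes, 6 differed among the 6 lines, in a likelihood ratio test (DESeq2, antibody as a term) whose adjusted p was 8.49e-14 for Ccr2, 1.71e-08 for Ccl12, 9.49e-05 for Ccr1, 0.000141 for Ccl7, 0.000979 for Ccl2 and 0.0125 for Ccl8. Across all genes 16% passed this test. Ccl3, Ccl4 and Ccl5 did not pass, with adjusted p-values of 0.424, 0.419 and 0.52. When the lines were compared in 15 pairs, 24 of the 135 gene and pair combinations passed, against 4.23% over all genes, and 8 of the 24 belonged to Ccr2. Ordered by level, no gene differed between lines next to each other in the order, in any of 5 neighboring pairs per gene.

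**Figure D2:**
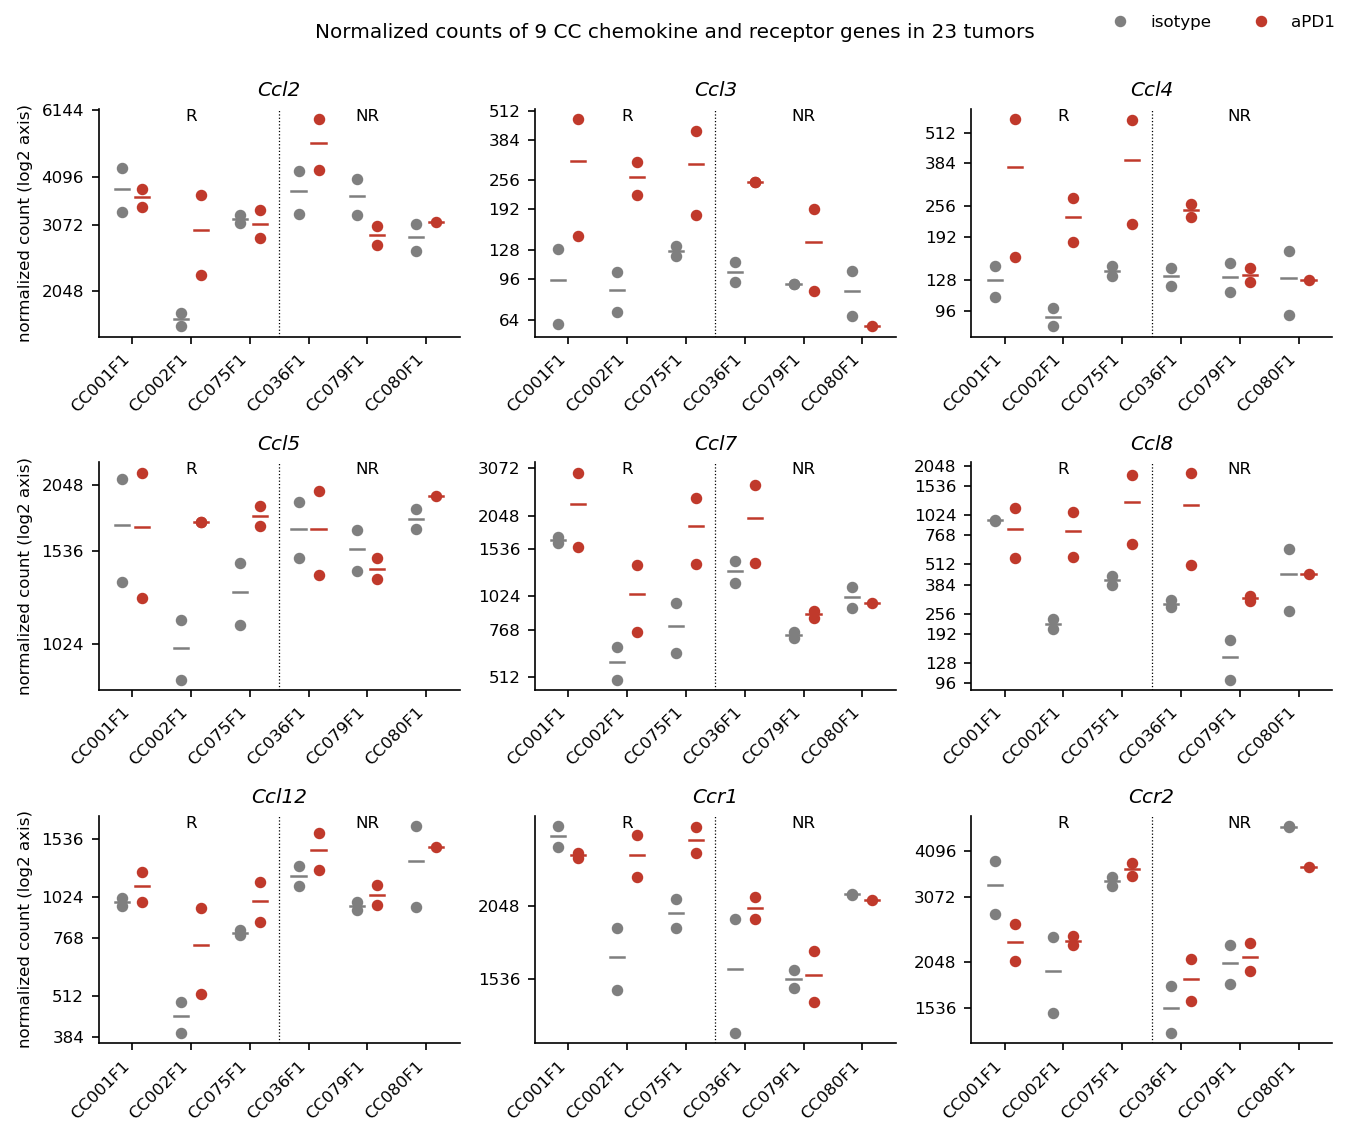
Normalized counts (log2 axis) of the 9 genes in every tumor by host line, with R lines left and NR lines right of the dotted line, isotype tumors in grey, aPD1 tumors in red and horizontal bars at group means. Ccr2 was highest in CC080F1, Ccl2, Ccl7 and Ccl12 were low in CC002F1 isotype tumors, and Ccl3 and Ccl4 of aPD1 tumors lay above those of isotype tumors in all 3 R lines.

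Ccr2 marked out 2 lines, one of each class. In CC080F1 it stood at 4787 and 4748 normalized counts in the isotype tumors and 3701 in the single aPD1 tumor. In CC075F1 it stood at 3288 and 3482 with isotype and at 3801 and 3502 with aPD1. These 7 tumors lay above all those of CC002F1 (1491 to 2406), CC079F1 (1790.0 to 2307) and CC036F1 (1315 to 2085), while the CC001F1 tumors ran from 2063 to 3851 and overlapped with both sets. CC080F1 exceeded CC036F1 2.60-fold (log2 1.38 ± 0.19 SE, DESeq2 adjusted p = 1.28e-10), CC079F1 2.13-fold (adjusted p = 4.35e-06) and CC002F1 2.06-fold (adjusted p = 1.75e-05). CC075F1 exceeded CC036F1 2.08-fold (log2 1.06 ± 0.17, adjusted p = 1.26e-07). The highest and the lowest line by mean, CC080F1 and CC036F1, were both NR.

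The CCR2 ligands followed another order. Ccl12 was lowest in CC002F1, at 396 and 493 normalized counts with isotype and 949 and 519 with aPD1. It was highest in CC080F1 (957 and 1682 with isotype, 1449 with aPD1) and CC036F1 (1269 and 1108 with isotype, 1236 and 1603 with aPD1). All tumors of the latter lines lay above every CC002F1 tumor, and CC080F1 exceeded CC002F1 2.42-fold (log2 1.28 ± 0.20, adjusted p = 1.10e-07).

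Ccl2 spanned a narrower range. The CC002F1 isotype tumors were the lowest of all (1657 and 1797) and the CC036F1 aPD1 tumors were among the highest (4272 and 5825). CC036F1 against CC002F1 was the 1 pair of 15 that passed (1.89-fold, log2 0.92 ± 0.19, adjusted p = 5.99e-05).

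Ccl7 was highest in CC001F1 (1615 and 1704 with isotype, 1567 and 2959 with aPD1) and low in CC002F1 isotype (502 and 663) and CC079F1 isotype tumors (719.9 and 753). Every CC001F1 tumor exceeded every CC002F1 and CC079F1 tumor, 2.48-fold for CC002F1 (log2 1.31 ± 0.29, adjusted p = 0.00353) and 2.40-fold for CC079F1 (log2 1.26 ± 0.29, adjusted p = 0.0012). Both calls were lost in deep libraries alone (adjusted p = 0.111 and 0.158), and that against CC002F1 also without CC001F1 aPD1 replicate 2, CC002F1 aPD1 replicate 2 or CC002F1 isotype replicate 1.

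Ccl8, which lies next to Ccl12, did not share its order. CC001F1 held 951 and 944 normalized counts with isotype and 556 and 1136 with aPD1. CC079F1 held 101 and 176 with isotype and 308 and 329 with aPD1. No tumor of one of these lines reached the range of the other, and the difference was 4.73-fold (log2 2.24 ± 0.51, adjusted p = 0.0008; in deep libraries alone adjusted p = 0.0968). The test of Ccl8 among lines was lost in the 17 deep libraries alone (adjusted p = 0.279), without the 3 tumors with Glycam1 counts (adjusted p = 0.0827), without CC079F1 isotype replicate 1 (adjusted p = 0.0766) and without CC079F1 aPD1 replicate 1 (adjusted p = 0.0501).

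Ccr1 was highest in CC001F1 (2804 and 2579.8 with isotype, 2523 and 2476 with aPD1) and lowest in CC079F1 (1592 and 1485 with isotype, 1717 and 1407 with aPD1). Every CC001F1 tumor exceeded every CC079F1 tumor, with a mean difference of 1.68-fold (log2 0.75 ± 0.15, adjusted p = 4.30e-05; in deep libraries alone adjusted p = 0.0747). Both lines were thus set apart by Ccr1 and by Ccl7 and Ccl8 in the same direction. Ccl5, a T cell attractant, ranged only from a line mean of 1374 normalized counts in CC002F1 to 1831 in CC080F1, and none of its 15 pairs passed.

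The second comparison asked whether R and NR tumors differed. With the tumors of both antibodies in the fit and antibody as a covariate, 2 of the 9 genes passed, where 14.4% of all genes did. Of these 1 was higher in R tumors (background 7.66% of genes) and 1 was lower (background 6.78%). The median log2 difference of the 9 was 0.17, against 0.00 over all genes tested. The tumors of a line were treated as independent in this test, so that each class of 11 or 12 tumors rests on 3 lines.

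**Figure D3:**
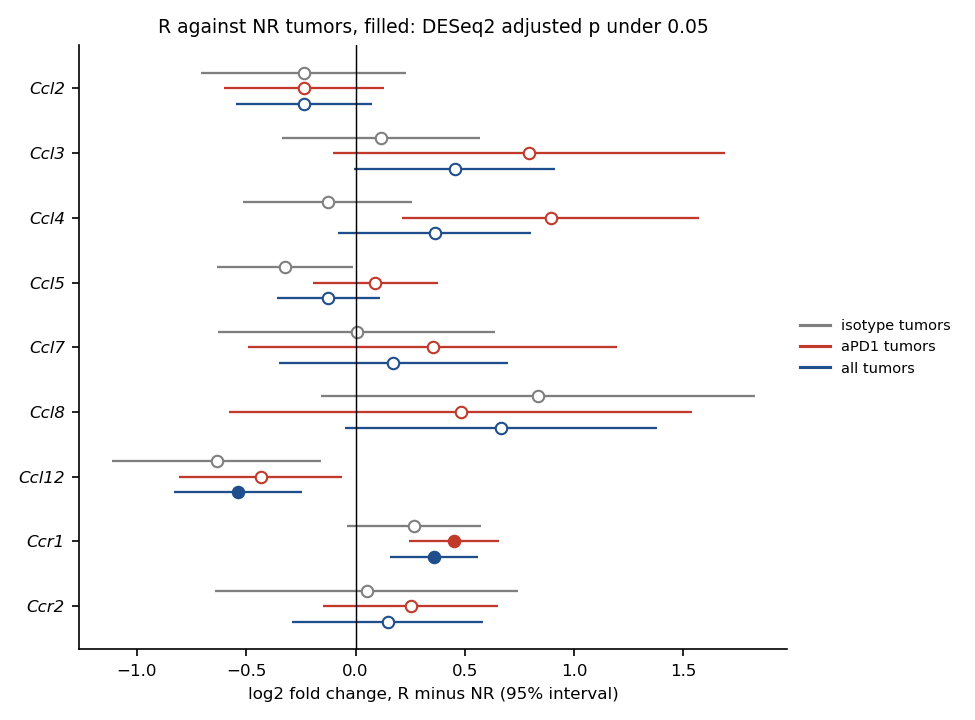
Log2 fold change of R against NR tumors for each gene with its 95% interval, in isotype tumors (grey), aPD1 tumors (red) and all tumors (blue), with filled points for a DESeq2 adjusted p under 0.05. Ccl12 lies left of 0 and Ccr1 right of 0 in all 3 comparisons, and Ccl2 also lies left of 0 in all 3 with intervals that include 0.

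Ccl12 was the gene lower in R tumors. Among isotype tumors it ran from 396 (median 798) to 1021 normalized counts in R and from 934 (median 1050.1) to 1682 in NR tumors. Among aPD1 tumors it ran from 519 (median 970.3) to 1216 in R tumors, and the 5 NR tumors had 968, 1116, 1236, 1449 and 1603. The classes overlapped in both sets, with CC002F1 at the bottom of R and CC036F1 and CC080F1 at the top of NR. The difference over all tumors was 1.45-fold (log2 -0.54 ± 0.15, adjusted p = 0.00511). It kept its call with line as a random effect (limma, log2 -0.57, adjusted p = 0.0228), and lost it without CC036F1 (log2 -0.48, adjusted p = 0.118). Within isotype tumors alone the log2 difference was -0.64 ± 0.25 (adjusted p = 0.0996) and within aPD1 tumors -0.43 ± 0.19 (adjusted p = 0.159).

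Ccr1 was the gene higher in R tumors. The R aPD1 tumors ran from 2291 (median 2521) to 2788 normalized counts and the 5 NR aPD1 tumors had 1407, 1717, 1949, 2095 and 2118. These 2 groups did not overlap, which held for 1 of the 9 genes and for 2.62% of all genes. Among isotype tumors R ran from 1472 (median 1992) to 2804 and NR from 1244 (median 1770.5) to 2149, and the classes overlapped. The difference was 1.28-fold over all tumors (log2 0.36 ± 0.10, adjusted p = 0.00725) and 1.37-fold in aPD1 tumors (log2 0.45 ± 0.10, adjusted p = 0.000731), where Ccr1 was the 1 gene of 9 that passed, against 7.93% of all genes, or 5.94% counting those higher in R. In isotype tumors it was 0.27 ± 0.16 on the log2 scale (adjusted p = 0.33). Over all tumors the call was lost in deep libraries alone (log2 0.32, adjusted p = 0.0546), without CC001F1 (log2 0.26, adjusted p = 0.127) and without CC079F1 (log2 0.24, adjusted p = 0.152), and in aPD1 tumors with line as a random effect (limma, log2 0.40, adjusted p = 0.0621).

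Ccl4 had a larger difference than Ccr1 among aPD1 tumors and did not pass. The R aPD1 tumors ran from 159.7 (median 248) to 581 normalized counts and the NR aPD1 tumors from 125 (median 143) to 261. The classes overlapped, and the difference was 1.86-fold (log2 0.89 ± 0.35, adjusted p = 0.0956). It passed with counts summed per line (adjusted p = 0.0292), without the lines CC036F1 (adjusted p = 0.0163) or CC002F1 (adjusted p = 0.0498), and without CC001F1 aPD1 replicate 1 (adjusted p = 0.0257) or CC002F1 aPD1 replicate 2 (adjusted p = 0.0489).

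In isotype tumors alone, that is without PD-1 blockade, none of the 9 genes passed with DESeq2 or with edgeR, where 5.53% of all genes passed with DESeq2. At an unadjusted p under 0.05 there were 2 of 9 with DESeq2 (Ccl5 and Ccl12, both lower in R) and 1 of 9 with edgeR. Of 24538 genes fitted in isotype tumors, 3285 had such a p with DESeq2 and 3681 with edgeR. Ccl12 passed with total counts as library sizes (adjusted p = 0.038), without CC001F1 isotype replicate 1 (adjusted p = 0.0199) and without the line CC001F1 (adjusted p = 0.00537), and Ccl5 passed without CC001F1 isotype replicate 2 (adjusted p = 0.0075) and without the line CC001F1 (adjusted p = 0.0104). The remaining genes had wide intervals. For Ccl8 the log2 difference in isotype tumors was 0.83 with a 95% interval of -0.16 to 1.83, and for Ccr2 it was 0.05 with an interval of -0.65 to 0.74. For Ccl2 over all tumors it was -0.24 with an interval of -0.55 to 0.08. The isotype, aPD1 and pooled comparisons share tumors and are not independent of each other.

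Leukocyte markers moved with class as well. Of 10 monocyte and macrophage markers 6 were higher in R tumors over all tumors and none lower, and of 10 T and NK cell markers 8 were higher and none lower. The summed level of the monocyte and macrophage markers ran from 54117 to 153447 normalized counts in R tumors and from 47777 to 98991 in NR tumors, and none of these 10 markers was at 0 in a tumor. The part of these markers in the Ccr1 and Ccl12 differences was not tested.

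The third comparison asked what changed 48 h after aPD1. In R lines 3 of the 9 genes rose and none fell, against 5.26% of all genes that passed, 4.85% that rose and 0.408% that fell, and the median log2 change of the 9 was 0.41 against -0.01 over all genes. The 3 genes were Ccl3, Ccl4 and Ccl7, and they rose 2.88-fold, 2.74-fold and 1.78-fold. In NR lines none of the 9 passed, where 0.0448% of all genes did. With DESeq2 and with edgeR alike, 3 of 9 had an unadjusted p under 0.05 in NR lines, all with a positive log2 change. Of 24552 genes fitted in NR lines, 1316 had such a p with DESeq2 and 1472 with edgeR. With edgeR's quasi-likelihood test none of the 9 passed in R lines, where 7 of 9 had an unadjusted p under 0.05 and where edgeR called no gene at all. An unadjusted edgeR p under 0.05 was found there for 2621 of 24858 genes fitted. The count in R lines was 7 of 9 without CC001F1 aPD1 replicate 1 and 6 of 9 without the line CC001F1. The share of all genes that passed in these refits is not given here, so these counts have no background to be set against. CC001F1 aPD1 replicate 1 was the tumor with the most skeletal muscle transcripts, and their part was not tested.

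**Figure D4:**
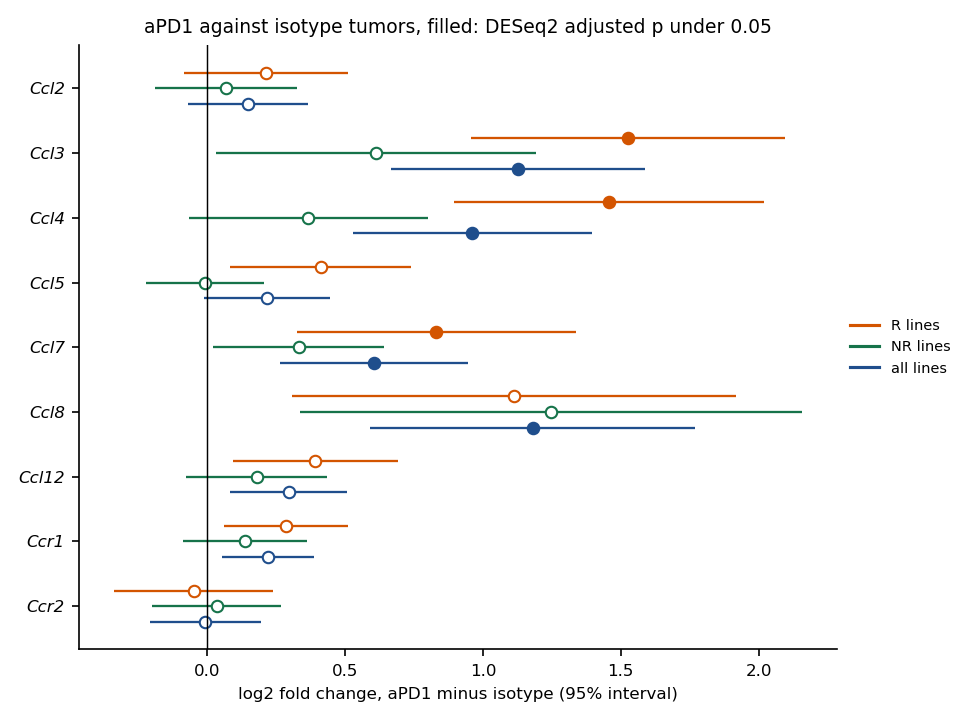
Log2 fold change of aPD1 against isotype tumors for each gene with its 95% interval, with line as a term, in R lines (orange), NR lines (green) and all lines (blue), with filled points for a DESeq2 adjusted p under 0.05. Ccl3, Ccl4 and Ccl7 rose in R lines (log2 1.52, 1.46 and 0.83) and no gene passed in NR lines, while the Ccl8 estimates of both classes lie side by side (1.11 and 1.25).

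Ccl3 encodes a ligand of CCR1. In isotype tumors of R lines it stood at 61.4 and 129 normalized counts (CC001F1), 69.3 and 103 (CC002F1) and 120.5 and 134 (CC075F1). In their aPD1 tumors it stood at 148 and 472 (CC001F1), 307 and 222 (CC002F1) and 420.3 and 182 (CC075F1). Each of the 6 aPD1 tumors exceeded each of the 6 isotype tumors, which held for Ccl3 and Ccl4 among the 9 genes and, upward, for 0.383% of all genes. The log2 change was 1.52 ± 0.29 (adjusted p = 0.000103; edgeR adjusted p = 0.0634). In NR lines the isotype tumors ran from 66.6 (median 92.3) to 113, and the aPD1 tumors had 251 and 252 (CC036F1), 84.7 and 193 (CC079F1) and 59.9 (CC080F1). The CC036F1 aPD1 tumors were thus within the range of the R aPD1 tumors, and the CC080F1 one was the lowest of all 23. The log2 change in NR lines was 0.61 ± 0.30 (adjusted p = 0.889), and the estimate was 1.2 without the tumors with Glycam1 counts. Those were CC079F1 aPD1 replicate 1 (84.7) and CC080F1 aPD1 replicate 1 (59.9), the lowest of the NR aPD1 tumors. That refit thus held no aPD1 tumor of CC080F1 and 1 of CC079F1.

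Ccl4, a macrophage and T cell chemokine whose gene lies near Ccl3, showed the same order. In isotype tumors of R lines it stood at 109.8 and 146 (CC001F1), 83.2 and 99.1 (CC002F1) and 147 and 134 (CC075F1), and in aPD1 tumors at 159.7 and 581 (CC001F1), 278 and 184 (CC002F1) and 576 and 218 (CC075F1). The sets did not overlap, and the log2 change was 1.46 ± 0.29 (adjusted p = 0.000181; edgeR adjusted p = 0.0645). In NR lines the isotype tumors ran from 92.6 (median 133) to 169 and the aPD1 tumors had 261 and 233 (CC036F1), 143 and 125 (CC079F1) and 128 (CC080F1), with a log2 change of 0.37 ± 0.22 (adjusted p = 1).

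Ccl7 in R lines ran from 502 (median 814) to 1704 normalized counts with isotype and from 753 (median 1459.9) to 2959 with aPD1. The sets overlapped, because the CC001F1 isotype tumors exceeded the CC002F1 aPD1 tumors, and with line as a term the log2 change was 0.83 ± 0.26 (adjusted p = 0.0308; edgeR adjusted p = 0.0813). The call was lost without CC002F1 (adjusted p = 0.236), without CC075F1 (adjusted p = 0.0697), without the tumor with Glycam1 counts (adjusted p = 0.103), with depth class as a term (adjusted p = 0.0524), and without any 1 of 7 of the 12 tumors.

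Ccl8 had estimates of like size in both classes when all tumors were used. In R lines it ran from 205 (median 409) to 951 normalized counts with isotype and from 556 (median 872) to 1789.7 with aPD1, a log2 change of 1.11 ± 0.41 (adjusted p = 0.0946). Leaving out the line CC001F1 raised that estimate to 1.73 ± 0.27 (adjusted p = 3.76e-08). Leaving out CC001F1 aPD1 replicate 1 raised it to 1.40 ± 0.35 (adjusted p = 0.00168). In NR lines it ran from 101 (median 274) to 631 with isotype, and the 5 aPD1 tumors had 308, 329, 446, 510.3 and 1859, a log2 change of 1.25 ± 0.47 (adjusted p = 0.653) that passed without CC080F1 (log2 1.61 ± 0.47, adjusted p = 0.0356). Over all lines the change passed (2.27-fold, log2 1.18 ± 0.30, adjusted p = 0.0119). It was lost in deep libraries alone (log2 1.27, adjusted p = 0.0697), with edgeR (adjusted p = 0.0741), and without CC002F1, CC036F1, CC075F1 or CC079F1 (adjusted p = 0.0511 to 0.165).

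Over all lines Ccl3 (log2 1.13 ± 0.24, adjusted p = 0.00126), Ccl4 (log2 0.96 ± 0.22, adjusted p = 0.00431) and Ccl7 (log2 0.60 ± 0.17, adjusted p = 0.0283) passed together with Ccl8, that is 4 of 9 genes, all upward, against 2.79% of all genes and 2.55% upward, and none passed with edgeR, where 6 of 9 had an unadjusted p under 0.05. An unadjusted edgeR p under 0.05 was found over all lines for 2584 of 26342 genes fitted. Without CC075F1, Ccl3 was the 1 gene of the 9 that passed. The share of all genes that passed in that refit is not given here, so the lower count may not be particular to the 9. The Ccl7 call over all lines was also lost in deep libraries alone (adjusted p = 0.117), without CC002F1, CC036F1 or CC079F1 (adjusted p = 0.0604 to 0.0984), and without any 1 of 8 single tumors (adjusted p = 0.0534 to 0.101). The comparison over all lines holds the tumors of the R and the NR comparison. The other 5 genes did not pass in any of the 3 comparisons with all tumors in the fit. Ccr2 had log2 changes of -0.05 (95% interval -0.34 to 0.24) in R and 0.03 (-0.20 to 0.27) in NR lines. Ccl2 had 0.21 (-0.09 to 0.51) in R and 0.07 (-0.19 to 0.32) in NR lines. For Ccl5, Ccl12 and Ccr1 the estimates in R lines were 0.41, 0.39 and 0.29, with adjusted p-values of 0.151, 0.122 and 0.141. Without CC001F1 aPD1 replicate 1 all 3 passed (adjusted p = 0.00107, 0.0389 and 0.0455), and without the line CC001F1 Ccl5 (adjusted p = 0.000221) and Ccr1 (adjusted p = 0.000988) did. Ccl5 in R lines also passed in deep libraries alone (adjusted p = 0.0225) and without CC001F1 isotype replicate 2 (adjusted p = 0.0105), and Ccl12 over all lines in deep libraries alone (adjusted p = 0.0412) and without CC080F1 isotype replicate 2 (adjusted p = 0.0376).

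The difference of the aPD1 change between R and NR lines was tested as an interaction, and none of the 9 genes passed with DESeq2 or edgeR, where 0.0342% of all genes passed with DESeq2. At an unadjusted p under 0.05 there were 3 of 9 with DESeq2 and 2 of 9 with edgeR. Of 26342 genes fitted, 1751 had such a p with DESeq2 and 1932 with edgeR. The largest estimate was that of Ccl4, whose change was higher by 1.11 ± 0.39 on the log2 scale in R lines (95% interval 0.34 to 1.89, adjusted p = 0.437), and it passed without CC001F1 aPD1 replicate 1 (log2 1.27 ± 0.35, adjusted p = 0.0201). For Ccl3 it was 0.92 (interval 0.05 to 1.79, adjusted p = 0.721) and for Ccl5 0.43 (interval 0.00 to 0.86, adjusted p = 0.747), which passed without the line CC001F1 (log2 0.65 ± 0.18, adjusted p = 0.0465). For Ccl8 it was -0.12 (interval -1.34 to 1.09). With all tumors in the fit, the rise of Ccl3 and Ccl4 in R lines was thus not shown to differ from their change in NR lines.

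Some markers of leukocytes also rose in R lines. Of the 10 monocyte and macrophage markers 5 rose with aPD1 (Adgre1, Cd68, Itgam and Plac8 among them) and none fell, of 10 T and NK cell markers 1 rose (Ifng, 2.83-fold, adjusted p = 0.00365), and of 5 granulocyte markers 1 rose (Csf3r, log2 1.03, adjusted p = 0.0345). Csf3r had a median of 389 normalized counts over all tumors. The granulocyte markers S100a8, S100a9, Retnlg and Cxcr2 were near the floor, with medians of 9.21, 7.49, 0 and 14.7. The summed monocyte and macrophage markers ran from 54117 (median 96572) to 110269 normalized counts with isotype and from 90895 (median 95852) to 153447 with aPD1. None of the 10 was at 0 in a tumor. The summed T and NK cell markers ran from 1761 (median 2428) to 3564 with isotype and from 1657 (median 3960) to 8612 with aPD1. In NR lines no gene of these 3 lists passed. The part of these markers in the changes of Ccl3, Ccl4 and Ccl7 was not tested.

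Taken line by line, the change with aPD1 passed in 4 of 54 gene and line combinations, against 0.851% over all genes and lines, and all 4 were in CC002F1, where 3.34% of all genes passed and 1.70% rose. There Ccl2, Ccl3, Ccl5 and Ccr1 rose by 0.78 ± 0.20 (adjusted p = 0.0112), 1.62 ± 0.51 (adjusted p = 0.048), 0.80 ± 0.25 (adjusted p = 0.0413) and 0.58 ± 0.17 (adjusted p = 0.0309) on the log2 scale. For Ccl2 the isotype tumors had 1657 and 1797 normalized counts and the aPD1 tumors 3676 and 2267. For Ccl5 they had 1135 and 875 against 1746 and 1741, and for Ccr1 1875 and 1472 against 2710.2 and 2291. In each case both aPD1 tumors exceeded both isotype tumors. The 4 calls did not all hold without CC002F1 isotype replicate 1, which held Glycam1 counts, CC002F1 isotype replicate 2 or CC002F1 aPD1 replicate 1. Each of these refits leaves 1 tumor in a group. With edgeR none passed. At an unadjusted p under 0.05 there were 20 of 54 combinations with DESeq2 and 22 with edgeR. Over all genes and lines, 9597 combinations had such a p with DESeq2 and 10241 with edgeR, with 26342 genes fitted.

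**Figure D5:**
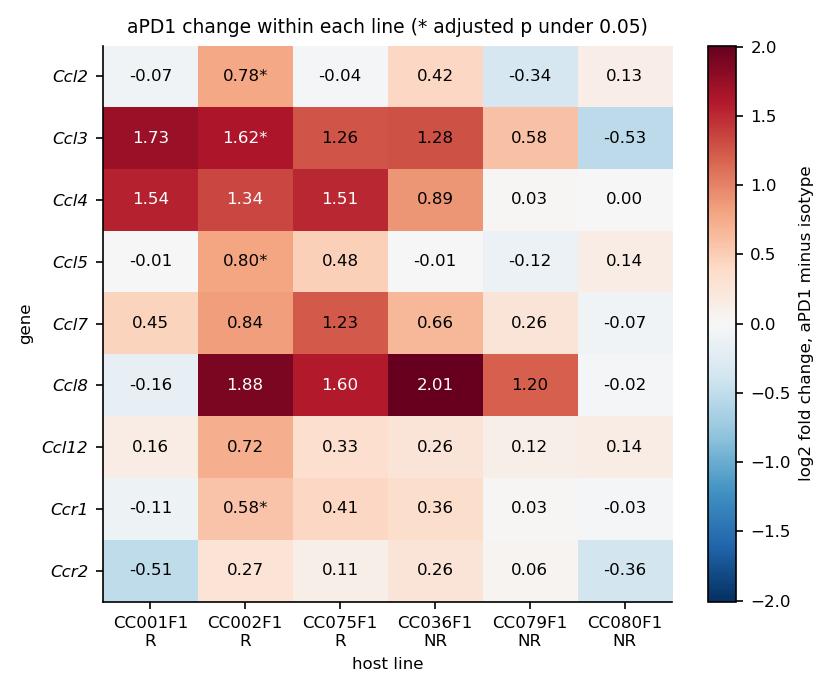
Log2 fold change of aPD1 against isotype tumors within each host line (columns) for each gene (rows), from red for higher to blue for lower with aPD1, with an asterisk for a DESeq2 adjusted p under 0.05. Ccl3 and Ccl4 were at 0.89 or above in CC001F1, CC002F1, CC075F1 and CC036F1, Ccl8 was positive in CC002F1, CC075F1, CC036F1 and CC079F1, and the asterisks are all in CC002F1.

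Outside CC002F1 the estimates of Ccl3 were 1.73 ± 0.52 in CC001F1, 1.26 ± 0.51 in CC075F1 and 1.28 ± 0.52 in the NR line CC036F1, against 0.58 ± 0.53 in CC079F1 and -0.53 ± 0.65 in CC080F1. In CC036F1 the Ccl3 tumors were at 93.4 and 113 with isotype and 251 and 252 with aPD1. Ccl8 had its own highest estimate in CC036F1, at 2.01 ± 0.63, with 309 and 281 normalized counts with isotype against 510.3 and 1859 with aPD1. None of these passed (adjusted p = 0.166 to 1), in a design of 2 tumors a group or fewer. Ccl8 in CC001F1 did not follow the other R lines, with 951 and 944 normalized counts with isotype and 556 and 1136 with aPD1 (log2 -0.16 ± 0.63). A test of whether the change differed among the 6 lines passed for none of the 9 genes with DESeq2 or edgeR (2.76% of all genes passed with DESeq2), with Ccl2 nearest at an adjusted p of 0.0595. Ccl2 fell on either side of the threshold with single tumors left out (adjusted p over all alternatives 0.00108 to 0.555). At an unadjusted p under 0.05 there were 3 of 9 with DESeq2 and 4 of 9 with edgeR. Among 26342 genes fitted, 2114 had such a p with DESeq2 and 1912 with edgeR.

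The 9 genes did not vary as a block. Correlations of log2(normalized count + 1) over the 23 tumors are given as a description, since the tumors share lines, antibody and library depth. The highest Pearson r was 0.85 for Ccl3 with Ccl4 (0.67 for deviations from the group means), then 0.79 for Ccl7 with Ccl8 (0.72 within groups), 0.75 for Ccl2 with Ccl12 (0.61), 0.74 for Ccl8 with Ccr1 (0.11) and for Ccl4 with Ccl7 (0.71), and 0.69 for Ccl2 with Ccl7 (0.72). Ccr2 had low r with the genes of its ligands, at -0.10 for Ccl2, 0.05 for Ccl7 and 0.15 for Ccl12. Ccl8 and Ccl12, whose promoters are shown above and whose genes are neighbors, had r of 0.29.

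Of 12046 other genes whose mean normalized count was 100 or more, those most like Ccl5 were the interferon-stimulated genes Oasl2 (r = 0.82), Ifit3 (0.82) and Isg15 (0.79), and their r within groups was 0.78 to 0.85. Most like Ccl3 were Lpin2 (0.91), Adam8 (0.89) and Nfkbiz (0.87), an inducible regulator of NF-kappa B, and most like Ccl4 were Fth1, the ferritin heavy chain (0.91), Mxd1 (0.89) and Sdc3 (0.89). Ccl2 was nearest to the macrophage elastase Mmp12 (0.81), Il13ra1 (0.78) and Mtss1 (0.78), Ccl7 to Emilin2 (0.90) and Carhsp1 (0.86), and Ccl8 to Cd200r1 (0.92), Pygl (0.89) and Galnt6 (0.88). Ccl12 had weaker neighbors in Sertad3 (0.76), Lonrf3 (0.75) and Atp6v0d1 (0.74), as did Ccr2 in Tma7 (0.77), Klra2 (0.74) and Cstf3 (0.74). Ccr1 was nearest to the leukotriene receptor gene Cysltr1 (0.87), AI504432 (0.83) and Cdc42ep3 (0.82). These are among the 3 of highest r for each gene, picked from all 12046, and say nothing of shared function.

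Other CC genes were read from lists of 11 further chemokines and 11 further receptors, of which not all are reported here. Between classes none of the 11 chemokines passed, over all tumors or within isotype or aPD1 tumors. Ccr8, the receptor of CCL8, was higher in R tumors over all tumors (log2 1.05 ± 0.34, adjusted p = 0.0217) and among aPD1 tumors (log2 1.44 ± 0.35, adjusted p = 0.00122). Its level was low, with a median of 17.2 normalized counts over all tumors and 0 in 1 tumor. No receptor was lower in R tumors over all tumors.

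With aPD1 in R lines the receptor genes Ccrl2 (log2 0.88 ± 0.25, adjusted p = 0.0143) and Ccr9 (log2 1.40 ± 0.46, adjusted p = 0.0496) rose, and of the 11 chemokines none did. Ccr9 was low, with medians of 7.25 normalized counts with isotype and 17.8 with aPD1 in R lines. Its gene overlaps others, among them Gm17020 and Gm17200 on the same strand. In NR lines none of the 22 genes passed. Over all lines Ccl22, a dendritic cell chemokine, rose (log2 0.62 ± 0.19, adjusted p = 0.0438). Among the 6 lines 4 of the 11 chemokines differed (Ccl22, Ccl24, Ccl17 and Ccl9), as did Ccrl2 (adjusted p = 0.00271), where 16% of all genes passed. Ccl24 and Ccl17 were near the floor, with medians of 8.11 and 9.98 normalized counts and 0 in 2 tumors each. The highest Ccl24 value was 330 in CC036F1 aPD1 replicate 2, against a median of 9.36 in NR aPD1 tumors. Line by line, Ccl9 rose with aPD1 in CC075F1 (log2 0.99 ± 0.27, adjusted p = 0.0229).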

How the data were processed

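Per the labels, poly(A) libraries of 23 whole tumors were made, reads were aligned with Bowtie 1.2.3 to transcriptomes of the founder strains, and the deposited values are expected counts per gene that the authors estimated (GRCm38). They are not whole in 16.95% of values and were rounded. GENCODE vM21 named 26681 of 26869 identifiers, and the 188 others held 0.0993% of counts. R and NR follow the study's text. Replicates are separate tumors, and replicate pairs differed beyond sampling noise (chi-square per degree of freedom 9.16 to 122.98 over 11 pairs). Genes with at least 5 counts summed over a fit were tested with DESeq2 1.42.0 in R 4.3.3 (Wald or likelihood ratio test, two-sided), with Benjamini-Hochberg adjustment over all genes and a threshold of 0.05. The precision is limited by 2 tumors a group. edgeR 4.0.16, limma 3.58.1, other library sizes, a depth term, a replicate block and fits without tumors or lines were alternatives. Fits were tested on simulated data. Members, gene lists and tests were chosen with earlier results of these data known. All 9 genes are described, other CC genes where called (at most 4 a list), and the 3 genes most correlated with each of the 9; some of these are not reported here.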

Additional observations from a re-analysis of the deposited data

Results flagged for a closer look

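Ccl8 in CC036F1 aPD1 replicate 2, at 1859.5 normalized counts, stood apart from the other 4 NR aPD1 tumors, which ran from 307.6 to 510.3, its gap to the nearest being 0.719 of the whole range. It was the only tumor so far from the others in 36 groups of class, antibody and gene, where chance flags about 1 in 20.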

How the results depend on the processing

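Numbers here count the 9 genes past the threshold. The share of all genes under each setting is not given beside them, so a changed count may not be particular to the 9. R against NR over all tumors went from 2 to 1 in deep libraries only, without CC001F1 and without CC079F1; among aPD1 tumors from 1 to 0 with limma, to 2 with counts summed per line and without CC002F1, and to 4 without CC036F1; among isotype tumors from 0 to 1 with total counts and to 2 without CC001F1. aPD1 against isotype in R lines went from 3 to 0 with edgeR and to 6 without CC001F1; in NR lines from 0 to 1 without CC080F1 or without tumors with Glycam1 counts; over all lines from 4 to 0 with edgeR, to 1 without CC075F1, and to 2 without CC002F1, CC036F1 or CC079F1. The difference between classes in the aPD1 change went from 0 to 1 without CC001F1. Line by line the 4 calls became 2 with total counts or a depth term, 0 with edgeR and 1 without tumors with Glycam1 counts. The test among lines of the aPD1 change went from 0 to 1 with TMM-scaled sizes, and the 24 line pairs to 15 in deep libraries only. The cause was not tested.

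Leaving out 1 tumor at a time gave 2 to 3 for R against NR over all tumors, 0 to 1 in isotype and 1 to 2 in aPD1 tumors; 2 to 7 for aPD1 in R lines (7 without CC001F1 aPD1 replicate 1), 0 to 0 in NR lines and 3 to 5 over all lines; 0 to 1 for the difference between classes and among lines; 5 to 6 for lines, 21 to 32 for pairs, and 0 to 10 line by line (10 and 8 without CC001F1 aPD1 replicate 1 or 2, 7 without CC075F1 aPD1 replicate 2, 2 without CC079F1 isotype replicate 2). The labels do not say whether tumors with the same replicate number in a line share more than that number. Their deviations from group means correlated at 0.37, 0.06, -0.20, 0.20 and 0.11 in CC001F1, CC002F1, CC075F1, CC036F1 and CC079F1, which cannot decide it. In CC001F1 the summed skeletal muscle genes were at 6742.7 and 14714.7 in the replicate 1 tumors. In its replicate 2 tumors they were at 17.2 and 33.5. With a replicate block the counts were 9 line by line and 1 for the test among lines of the aPD1 change, and within 1.5 times of the values above otherwise.

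Over all genes edgeR called 30 against 829 with DESeq2 for R against NR in isotype tumors, 560 against 1361 in aPD1 tumors, 0 against 826 for aPD1 in R lines, 5 against 11 in NR lines, 15 against 464 over all lines, 0 against 9 for the difference between classes, 1666 against 3067 among lines, 7161 against 12485 over pairs, 159 against 923 line by line and 38 against 403 for its test among lines. No called value of the 9 genes changed sign. Of 2178 values with an unadjusted p of 0.05 or more in the reported fit, 128 had the other sign under an alternative and 0 of them passed. With 1 or 2 tumors a group, changes within a line are the least certain.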
